A study of Danio rerio with 2 samples.

Results

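The genes described here are zebrafish members of the insulin-like growth factor (IGF) axis and the Vegf ligands: igf2b, igfbp6b, igfbp5b, igfbp7, igf2r, vegfaa and vegfab. These 7 symbols were matched, in any case and with or without a final a or b, to the Ensembl gene IDs of both count tables. They met 6 IDs, of which 5 had at least 20 counts in a heart, among 18139 gene IDs in the series. The 5 were igf2b (ENSDARG00000033307), igfbp6b (ENSDARG00000090833), IGFBP5 (ENSDARG00000025348), IGF2R (ENSDARG00000006094) and VEGFA (ENSDARG00000034700), written as the name table spells them. The symbols IGFBP5 and VEGFA each stand for more than 1 zebrafish gene in that table, so these genes are called by symbol and ID, and not as an a or b copy. The other IGFBP5 ID (ENSDARG00000039264) held 3 counts at 3 days post injury (dpi) and 8 at 7 dpi and is not described further. IGFBP7 and the other VEGFA ID were not analysed here.

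Each count table came from 1 adult zebrafish heart whose sample title reads WT, taken as wild type; the ventricle had been cryoinjured, a freezing lesion of the heart wall, and the heart was taken at 3 or at 7 dpi. The unfixed ventricle was frozen and cut into 12 µm sections starting at the injury and ending in remote, uninjured muscle. The mRNA of each section was barcoded and amplified by CEL-seq, a method that sequences the 3′ ends of transcripts. There was no uninjured heart in the samples, and age, sex and strain beyond WT are not given in the labels. With 1 heart per day, and sections that are not replicates of each other, no test between groups was possible and day cannot be told apart from heart.

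Insulin-like growth factor 2 is a secreted ligand that signals through the IGF1 receptor and the insulin receptor, and secreted binding proteins hold it in the extracellular space and tune its access to them. In mammals the IGF2 receptor does not relay growth signals but takes IGF2 up for degradation and sorts mannose 6-phosphate tagged enzymes to lysosomes. Vegfa ligands drive blood vessel growth and are induced by low oxygen in many tissues; in zebrafish, both Igf signalling and Vegfa have been linked to heart regeneration, through cardiomyocyte proliferation and through regrowth of coronary vessels.

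The tables held 40 sections at 3 dpi and 38 at 7 dpi, of which 35 and 24 were deep enough to keep. Depth per kept section was 39495 to 302404 counts in the 3 dpi heart (median 98915) and 20832 to 813848 in the 7 dpi heart (median 66331), and section 34 alone held 25.5% of the 7 dpi counts. Levels are gene counts scaled to a library of 1000000 counts (CPM). Sections 1 to 10 are called the injury side, 11 to 20 the middle and those from 21 on the remote side; the numbers of kept sections were 5, 10 and 20 at 3 dpi and 7, 9 and 8 at 7 dpi. Cardiomyocyte markers ran along this axis: their summed level went from 1426 CPM in the first block of 5 sections to 52406 CPM in the last at 3 dpi, and from 46.2 to 27278 CPM at 7 dpi. Leukocyte markers ran the other way at 3 dpi, from 11609 to 758 CPM. At 7 dpi they started at 6600 and ended at 1406 CPM, with a peak of 7356 CPM in sections 11 to 15. The first block at 3 dpi held 1 kept section. The remote sides of the hearts were not alike in these markers: summed cardiomyocyte markers per section were 892 to 31683 CPM at 7 dpi (median 12799 CPM) and 29203 to 56660 CPM at 3 dpi, and 7 dpi sections 21 to 25 held 3812 CPM of cardiomyocyte and 21008 CPM of epicardial and fibroblast markers. Of the cardiomyocyte markers, 4 of 10 IDs (TNNC1, actc1a, ACTC1 and RYR2) were at 0 on the 7 dpi injury side, where the share of all genes at 0 was not counted. Intervals in brackets after a level or a fold are 95% exact Poisson intervals. They take counts as independent, cover Poisson counting error of these libraries only, and leave out differences between animals. PCR copies of 1 molecule may be counted more than once, and the intervals would then be too narrow. Counting error below means these intervals. In such bulk sections fewer cells of a type and less RNA per cell cannot be told apart.

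The IGF axis and Vegf genes did not share 1 pattern along the hearts. At 3 dpi igf2b and igfbp6b were higher toward the injury and VEGFA was higher on the remote side, while IGFBP5 and IGF2R had no difference beyond counting error between the ends. At 7 dpi igfbp6b, IGFBP5 and VEGFA were lower near the injury than remotely, igf2b was present along the whole axis, and IGF2R was highest in the middle. The remote side of the 7 dpi heart had higher summed levels of igf2b, igfbp6b, IGF2R and IGFBP5 and a lower one of VEGFA than that of the 3 dpi heart. For IGF2R this did not hold in sections 31 to 35.

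**Figure D1:**
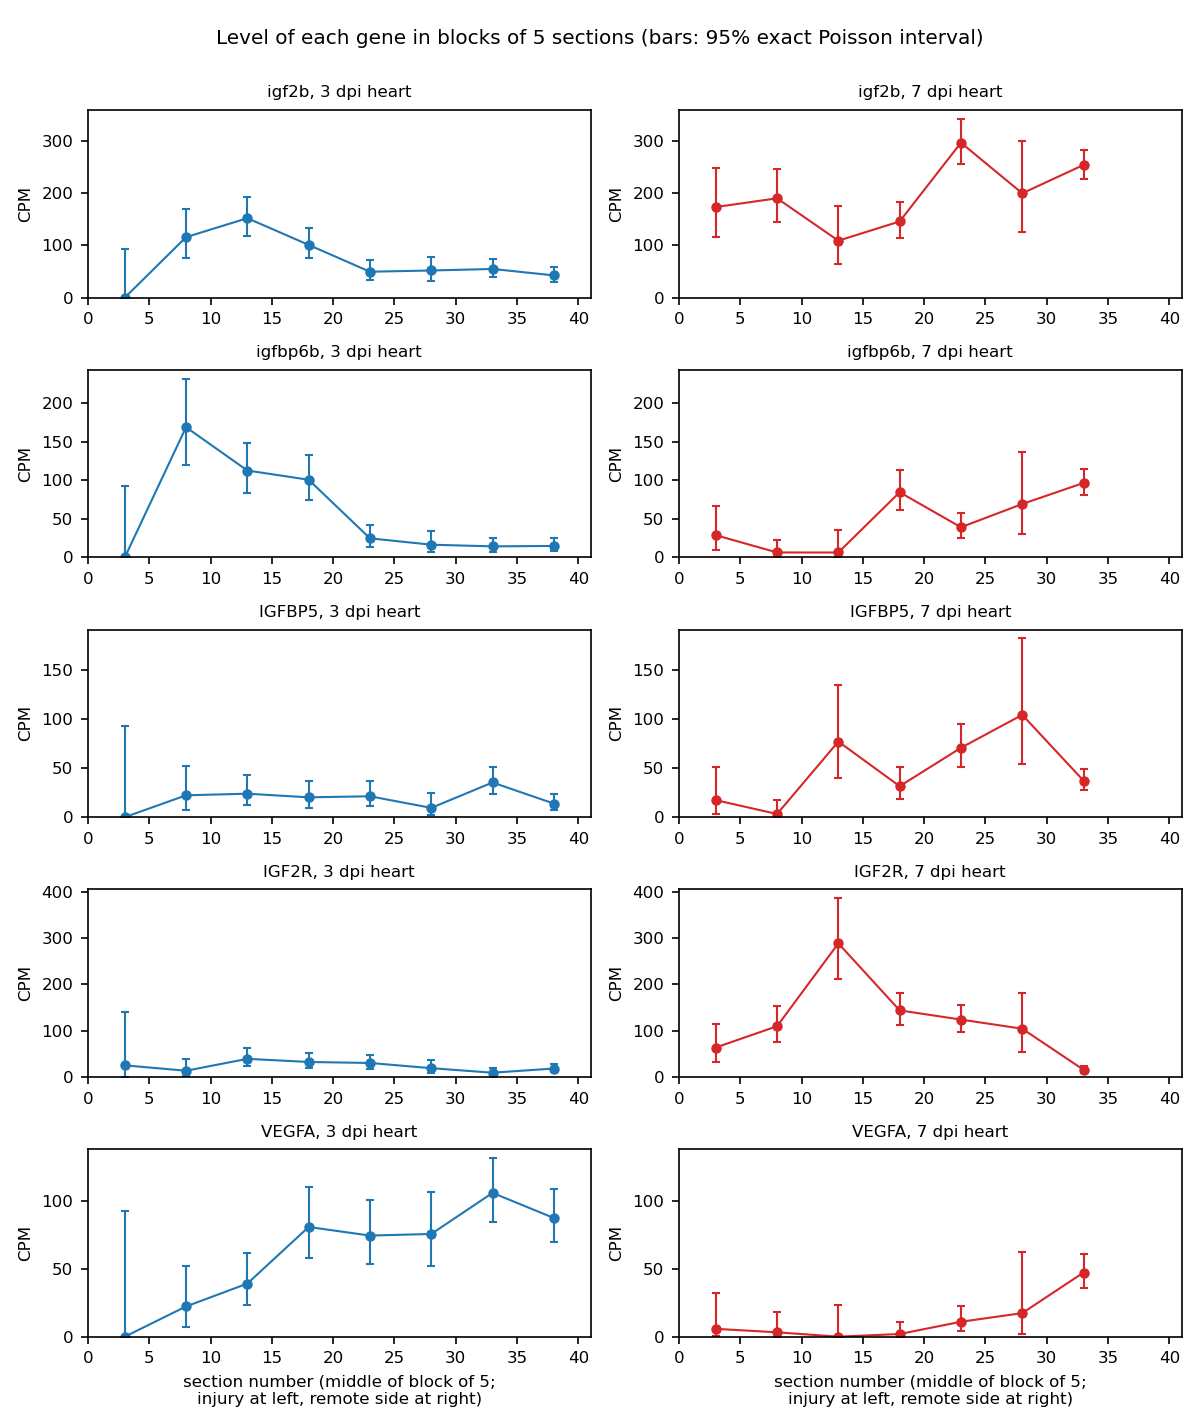
Level of igf2b, igfbp6b, IGFBP5, IGF2R and VEGFA in CPM (vertical axis, from 0, same scale for both hearts of a gene) in blocks of 5 section numbers (horizontal axis, injury at left), for the 3 dpi heart (left, blue) and the 7 dpi heart (right, red). Points are the summed level of the kept sections of a block and bars its 95% exact Poisson interval; igfbp6b peaks at 169 CPM in sections 6 to 10 at 3 dpi and at 96.7 CPM in sections 31 to 35 at 7 dpi.

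Among the ligands, igf2b, 1 of the zebrafish copies of the IGF2 gene, was highest in the blocks of sections 6 to 20 at 3 dpi. The igf2b level in successive blocks of 5 sections was 0, 116, 152, 101, 49.6, 51.9, 54.9 and 42.6 CPM. Within the block at 101 CPM, sections 18 to 20 held 51.7, 58.3 and 0 CPM, inside the range of the remote sections. The first block held a single kept section of 39968 counts, too few to tell 0 from a low level. From section 21 on the level was flat within counting error.

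In the 5 kept sections of the 3 dpi injury side, igf2b stood at 0, 204, 62.0, 108 and 79.7 CPM (sections 1 and 7 to 10). In the middle it ran from 0 to 272 CPM with a median of 137 CPM, and on the remote side from 0 to 92.9 CPM with a median of 52.2 CPM. The middle and the remote side overlapped, although 7 sections in a row, 11 to 17, were each above every remote section. The summed level of the middle was 2.56-fold that of the remote side (1.98 to 3.30), a log2 difference of 1.36. It was 0.49 with the first and last 10 kept sections as sides, a setting in which the middle became sections 16 to 30. The summed level of the injury side was 2.0-fold the remote level (1.26 to 3.07, from 26 against 132 counts). This value rests on section 7 and was 1.32-fold without it. Left out singly, 8 other sections also brought it under 2-fold. Over all genes the injury side exceeded the remote side by a median log2 difference of 0.65, and median-of-ratios scaling, which removes a shift of 0.67, left igf2b with a log2 difference of 0.33. Most of the igf2b difference between these ends was thus shared by the median gene.

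In the 7 dpi heart igf2b was present along the whole axis, at 173, 190, 109, 146, 296, 199 and 254 CPM in the 7 blocks. Single kept sections ran from 37.9 to 383 CPM on the injury side (median 191 CPM), from 0 to 301 CPM in the middle (median 99.4 CPM) and from 112 to 345 CPM on the remote side (median 269 CPM). The 3 ranges overlapped broadly. The injury side was below the remote side, 184 against 264 CPM, and the remote level was 1.43-fold higher (1.14 to 1.82). The middle was lower again, with a remote level 1.93-fold that of the middle (1.54 to 2.43), which passed 2-fold without section 11, 16, 18 or 34 and reached 2.22-fold without section 18.

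The remote level of igf2b was 5.38-fold higher at 7 than at 3 dpi (4.44 to 6.56; 264 against 49.0 CPM). Every kept remote section of the 7 dpi heart, at 112 CPM or more, was above every remote section of the 3 dpi heart, at 92.9 CPM or less. The share of all genes whose remote sections stood apart in this way was not counted. In the shallow remote 7 dpi sections left out, igf2b ran from 0, as in section 36 of 15900 counts, to 1037 CPM in section 27. The cell type markers also differed between these sides, as given with the counts of members, and their part in the igf2b difference was not tested. On the injury side the 7 dpi level was 1.87-fold the 3 dpi level (1.2 to 3.02), 2.84-fold without section 7 of the 3 dpi heart and 2.14-fold without section 3 of the 7 dpi heart. In order, the summed levels of igf2b were 264 CPM on the 7 dpi remote side, 184 on the 7 dpi injury side, 137 in the 7 dpi middle, 125 in the 3 dpi middle, 98.2 on the 3 dpi injury side and 49.0 CPM on the 3 dpi remote side. The intervals of the levels from 184 down to 98.2 CPM overlapped with their neighbours, and the first and the last stood apart.

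The binding protein gene igfbp6b was higher toward the injury at 3 dpi. In mammals its product binds IGF2 in preference to IGF1. Its level in the 8 blocks was 0, 169, 113, 101, 24.8, 16.5, 14.4 and 14.9 CPM, a high zone in sections 7 to 19 followed by a low remote stretch. The injury sections 1 and 7 to 10 held 0, 267, 155, 86.5 and 140 CPM. The middle sections ran from 40.7 to 136 CPM (median 110 CPM) and the remote sections from 0 to 68.7 CPM (median 15.4 CPM). Apart from section 1 at 0 and section 20 at 40.7 CPM, all kept sections before section 21 were above every remote one.

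At 3 dpi the injury-side level of igfbp6b was 8.4-fold the remote level (5.32 to 13.2; 38 against 46 counts). It was 6.24-fold higher in the middle (4.37 to 9.05). After median-of-ratios scaling the log2 differences were 2.40 and 2.29, against 3.07 and 2.64 before it. The smooth muscle and mural cell markers, summed, ran from 550 to 1054 CPM in the injury sections and from 111 to 404 CPM in the remote ones, without overlap. Leukocyte markers were likewise apart, at 6600 to 11609 CPM against 658 to 1830 CPM, as were epicardial and fibroblast markers, at 9761 to 19716 CPM against 3072 to 8054 CPM. By ID, 3 of 8 smooth muscle markers were at least 2-fold higher near the injury and 1 was lower, 13 of 13 leukocyte and 14 of 20 epicardial and fibroblast markers were higher, and 37.1% of all genes were. Their part in the igfbp6b result was not tested.

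At 7 dpi the direction was the opposite one. The block levels of igfbp6b were 28.9, 6.44, 6.41, 84.6, 39.2, 69.4 and 96.7 CPM. The injury side ran from 0 to 50 CPM with a median of 0, the middle from 0 to 107 CPM with a median of 0, and the remote side from 12.0 to 118 CPM with a median of 68.6 CPM. Over the 24 kept sections igfbp6b had a Pearson r of 0.61 and a Spearman rho of 0.63 with section depth. Section 12, for example, held 20832 counts, too few to tell 0 from a low level. The step lay inside the middle: sections 11 to 17 held 0 or 19.2 CPM and sections 18 to 20 held 107, 56.5 and 98.5 CPM. With a boundary there, placed after the values were seen, the 13 kept sections up to 17 held 8 counts (11.2 CPM) and the 11 from section 18 on held 201 counts (81.0 CPM). The sides were set by section number, and the injury sides of the hearts were unlike in cardiomyocyte markers. These summed per section to 1426 to 12846 CPM at 3 dpi and to 23.9 to 178 CPM at 7 dpi. Whether igfbp6b changed direction or its high zone lay at another position along the wound was not tested.

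The remote level of igfbp6b at 7 dpi was 5.34-fold that of the injury side (2.53 to 13.5; 158 against 7 counts). This fold was 10.4 without section 3 and 3.32 without section 10. On the injury side the 3 dpi level was 9.92-fold the 7 dpi level (4.38 to 26.3; 144 against 14.5 CPM), while on the remote side the 7 dpi level was 4.52-fold the 3 dpi level (3.24 to 6.42; 77.2 against 17.1 CPM). The injury-side fold was 19.3 without section 3 and 6.17 without section 10 of the 7 dpi heart. Cardiomyocyte and endothelial markers lay on the same side as igfbp6b at 7 dpi. Endothelial and endocardial markers summed to 34.2 to 303 CPM in the injury sections and to 885 to 2153 CPM in the remote ones, and cardiomyocyte markers to 23.9 to 178 CPM and 892 to 31683 CPM. By ID, 9 of 11 endothelial and 9 of 9 cardiomyocyte markers were at least 2-fold higher on the remote side, as were 25.3% of all genes. The endothelial markers vwf, ERG and ESAM were at 0 near the injury, where the share of all genes at 0 was not counted. The part of these markers in the igfbp6b levels was not tested.

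In order, igfbp6b stood at 144 CPM on the 3 dpi injury side, 107 in the 3 dpi middle, 77.2 on the 7 dpi remote side, 66.2 in the 7 dpi middle, 17.1 on the 3 dpi remote side and 14.5 CPM on the 7 dpi injury side. The intervals of neighbours overlapped except for those of 66.2 and 17.1 CPM.

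The IGFBP5 gene, whose product in mammals binds IGFs and matrix, had low levels at 3 dpi. Neither its injury side nor its middle differed from its remote side beyond counting error. Its blocks held 0, 22.2, 23.9, 20.2, 21.3, 9.44, 35.3 and 13.8 CPM, so the remote blocks were uneven. The middle was 1.06-fold the remote side (0.607 to 1.77). The injury sections 1 and 7 to 10 held 0, 31.4, 0, 43.2 and 19.9 CPM, inside the remote range of 0 to 63.1 CPM. The ratio of the injury side to the remote side was 0.908 (0.284 to 2.25; 5 against 56 counts), an interval that spans a 2-fold difference either way.

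At 7 dpi IGFBP5 was low in the first 10 sections and higher beyond, with blocks of 17.3, 3.22, 76.9, 31.5, 70.5, 104 and 37.1 CPM. Of the 7 kept injury sections, 5 were at 0 and the highest held 37.5 CPM, while the middle reached 132 CPM (median 66.8 CPM) and the remote side 112 CPM (median 78.3 CPM). Sections at 0 occurred on all sides, so the ranges overlapped. The remote level was 6.21-fold that of the injury side (2.35 to 23.2; 105 against 4 counts). It was 20.7-fold without section 3, which held 75% of the injury-side counts, and 3.86-fold without section 10.

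On the remote side IGFBP5 was 2.47-fold higher at 7 than at 3 dpi (1.77 to 3.48; 51.3 against 20.8 CPM). This was 1.82-fold without section 22 and 3.59-fold without section 34 of the 7 dpi heart. On the injury side the 3 dpi level was 2.28-fold the 7 dpi level, from 5 and 4 counts, and the interval of 0.492 to 11.5 allows either direction. It was 1.42-fold without section 10 of the 7 dpi heart, 1.81-fold and 1.66-fold without sections 7 and 9 of the 3 dpi heart, and 7.63-fold without section 3 of the 7 dpi heart. The 7 dpi remote side and middle, at 51.3 and 42.2 CPM, led the order, followed by the 3 dpi middle, remote and injury sides at 22, 20.8 and 18.9 CPM and by the 7 dpi injury side at 8.27 CPM, each with an interval overlapping its neighbour's.

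IGF2R, the receptor gene, was at low levels in the 3 dpi heart, with blocks of 25, 13.3, 39.1, 32.3, 30.1, 18.9, 9.14 and 18.1 CPM. The injury sections held 25, 15.7, 15.5, 21.6 and 0 CPM. The middle ran from 0 to 92.8 CPM (median 27.8 CPM) and the remote side from 0 to 48.9 CPM (median 13.3 CPM). These ranges overlapped. The injury side held 0.830 of the remote level (0.218 to 2.27; 4 against 49 counts), and the middle was 1.95-fold the remote level (1.22 to 3.09), or 1.55-fold without section 12 and 2.23-fold without section 23.

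At 7 dpi IGF2R had a peak in the middle of the axis, with blocks of 63.5, 109, 288, 144, 124, 104 and 15.5 CPM. All 7 injury sections lay between 47.8 and 119 CPM (median 90.4 CPM). The middle ran from 0 to 602 CPM (median 166 CPM) and the remote side from 0 to 145 CPM (median 54.5 CPM). The 4 highest sections were all in the middle, section 16 at 602 CPM, 11 at 594, 19 at 358 and 13 at 227 CPM, but section 14 between them was at 0, so the peak is uneven. The deepest section, 34, held 12.3 CPM.

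The 7 dpi middle was 3.28-fold above the remote side (2.51 to 4.28; 118 against 111 counts). It was 2.17-fold above without section 34 and 5.49-fold without section 22, which held 52.3% of the remote counts. With the first and last 10 kept sections as sides the middle became sections 14 and 16 to 18, and its log2 difference was 0.94 in place of 1.71. The injury side was 1.71-fold the remote level (1.18 to 2.44), 1.13-fold without section 34 and 2.87-fold without section 22, so this difference depends on single remote sections. The leukocyte markers were at 5421 to 11397 CPM in the middle sections and at 1123 to 5594 CPM in the remote ones. Of 14 leukocyte IDs 11 were at least 2-fold higher in the middle and 0 lower, against 19.3% and 17.6% of all genes. The part of these markers in the IGF2R result was not tested.

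The summed level of IGF2R was higher at 7 than at 3 dpi on both sides. The fold was 6.15 on the injury side (2.24 to 23.6; 93.0 against 15.1 CPM) and 2.98 on the remote side (2.11 to 4.26; 54.2 against 18.2 CPM). Near the injury every kept 7 dpi section, at 47.8 CPM or more, was above every kept 3 dpi section, at 25 CPM or less. Each of those 3 dpi sections held 0 or 1 count. The share of all genes whose sections stood apart in this way was not counted. Among the shallow sections left out, 3 dpi section 6 stood at 134 CPM and 7 dpi section 4 at 0. On the remote side the sections overlapped, and the fold was 1.78 without section 22 and 4.5 without section 34 of the 7 dpi heart. Its 7 dpi blocks were unequal, at 124 CPM in sections 21 to 25, 104 in 26 to 30 and 15.5 CPM in 31 to 35 (9.45 to 23.9). The last was not above the 3 dpi remote level. Cardiomyocyte markers summed to 3812, 11132 and 27278 CPM in these blocks. Cell type markers differed between the same sides. On the remote side 9 of 14 leukocyte IDs were at least 2-fold higher at 7 dpi, and of 10 cardiomyocyte IDs 6 were lower and 2 higher. There 32.4% of all genes were higher and 20.3% lower. Near the injury 9 of 10 cardiomyocyte IDs were lower, against 30.4% of all genes. The part of these markers in the IGF2R differences was not tested. The order was 178 CPM in the 7 dpi middle, 93.0 on the 7 dpi injury side, 54.2 on the 7 dpi remote side, 35.5 in the 3 dpi middle, 18.2 on the 3 dpi remote side and 15.1 CPM on the 3 dpi injury side, and the intervals of the levels from 54.2 CPM down overlapped with their neighbours except for 35.5 and 18.2 CPM.

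**Figure D2:**
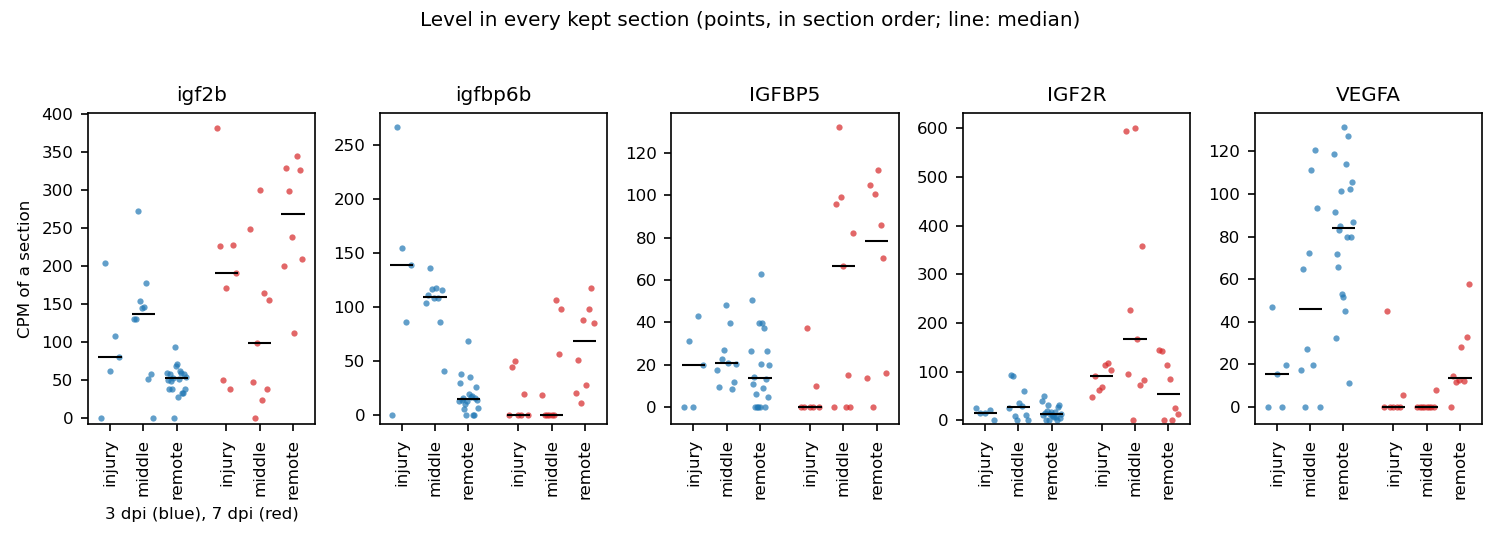
CPM of each gene (vertical axis, linear) in every kept section of the 3 dpi heart (blue) and the 7 dpi heart (red), grouped into injury side, middle and remote side, with points in section order within a group and a line at the group's median. At 3 dpi most igfbp6b points of the injury side and the middle lie above the remote points, at 7 dpi the injury and middle medians of igfbp6b are 0, and the highest IGF2R points of the 7 dpi middle stand at 594 and 602 CPM.

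VEGFA, the vessel growth ligand gene, was highest on the remote side in both hearts. At 3 dpi its blocks held 0, 22.2, 39.1, 80.7, 74.4, 75.6, 106 and 87.3 CPM. The injury sections 1 and 7 to 10 held 0, 47.1, 15.5, 0 and 19.9 CPM. The middle ran from 0 to 121 CPM (median 46.0 CPM) and the remote side, in which each of the 20 sections had at least 1 count, from 11.1 to 131 CPM (median 84.1 CPM). The ranges overlapped, although 17 of the 20 remote sections were above the highest injury section.

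The 3 dpi remote level was 4.66-fold that of the injury side (1.97 to 14.5; 237 against 5 counts), and 8.84-fold without section 7. It was 1.45-fold that of the middle (1.09 to 1.97). Along the 3 dpi heart VEGFA was thus graded in the direction of the cardiomyocyte markers, which summed to 1426 to 12846 CPM in the injury sections and 29203 to 56660 CPM in the remote ones; their part in the result was not tested. Over the 35 kept sections VEGFA had a Pearson r of 0.62 and a Spearman rho of 0.51 with the summed cardiomyocyte markers, of -0.68 and -0.53 with leukocyte markers and of 0.61 and 0.58 with section depth. These points share a heart, a library and a depth gradient, and the coefficients are descriptions only.

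At 7 dpi VEGFA was scarce outside the last sections, at 5.77, 3.22, 0, 1.97, 11, 17.3 and 47.2 CPM in the 7 blocks. Of the 7 injury sections 2 had a count, of 9 middle sections 1, and of 8 remote sections 7, where the levels reached 57.8 CPM (median 13.6 CPM). The remote level was 8.28-fold that of the injury side (2.21 to 69.7; 70 against 2 counts). The fold was 4.52 without section 34, which held 67.1% of the remote counts, and 15.8 without section 2. Against the middle, with 1 count, the remote level was 22.7-fold higher, with an interval of 3.95 to 910; without section 20 the middle held 0 counts and the remote level was at least 6.18-fold higher with the middle set to a floor of 3 counts.

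VEGFA was the 1 member with a lower level on the remote side at 7 than at 3 dpi: the 3 dpi level was 2.57-fold the 7 dpi one (1.96 to 3.41; 88.0 against 34.2 CPM), and 4.72-fold without section 34. On the injury side 5 counts at 3 dpi and 2 at 7 dpi gave 18.9 and 4.13 CPM, a fold of 4.57 with an interval of 0.748 to 48.0 that includes no difference; without section 7 of the 3 dpi heart both hearts held 2 counts and no fold is given. The order ran from the 3 dpi remote side at 88.0 CPM through the 3 dpi middle at 60.6, the 7 dpi remote side at 34.2 and the 3 dpi injury side at 18.9 to the 7 dpi injury side at 4.13 and middle at 1.51 CPM. The first pair of levels overlapped in their intervals, and so did each neighbouring pair from 34.2 CPM down.

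Read against all genes, the counts of members were as follows. At 3 dpi 2 of the 5 genes, igf2b and igfbp6b, passed 2-fold toward the injury side, as did 37.1% of the 8186 genes with at least 20 counts; 1, VEGFA, passed 2-fold toward the remote side, as did 12.0% of genes. For the 3 dpi middle the same 2 were higher, against 20.7% of genes, and 0 were lower, against 6.02%. At 7 dpi 0 of the 5 passed 2-fold toward the injury side, against 15.2% of 7806 genes, and 3, igfbp6b, IGFBP5 and VEGFA, did so toward the remote side, against 25.3%. For the 7 dpi middle 1, IGF2R, was higher (19.3% of genes) and 1, VEGFA, lower (17.6%). With 5 genes, the 3 dpi injury-side counts are near the background.

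Between the hearts, 1 member, IGF2R, was at least 2-fold higher at 7 dpi on the injury side, where 16% of 9307 genes were, and 3, igfbp6b, IGFBP5 and VEGFA, were lower, where 30.4% were. On the remote side 4 members were higher at 7 dpi, where 32.4% of genes were, and 1, VEGFA, was lower, where 20.3% were. All 5 thus passed 2-fold on the remote side between these hearts. Cell type markers moved with the same comparison: 7 of 9 smooth muscle and mural cell IDs were at least 2-fold higher at 7 dpi (median log2 difference 2.81), as were 14 of 19 epicardial and fibroblast (1.58) and 9 of 14 leukocyte IDs (1.49), while 6 of 10 cardiomyocyte IDs were lower and 2 higher (-1.06). On the injury side 9 of 10 cardiomyocyte IDs were lower at 7 dpi (-5.76 over 9 IDs), as were 6 of 14 leukocyte IDs (-0.95 over 13 IDs). The part of these markers in the differences of the members was not tested. The median log2 difference over all genes was -0.46 on the injury side and 0.27 on the remote side. After median-of-ratios scaling the remote log2 differences were 2.16 for igf2b, 1.91 for igfbp6b, 1.31 for IGF2R, 1.03 for IGFBP5 and -1.63 for VEGFA, and all stayed past 2-fold.

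**Figure D3:**
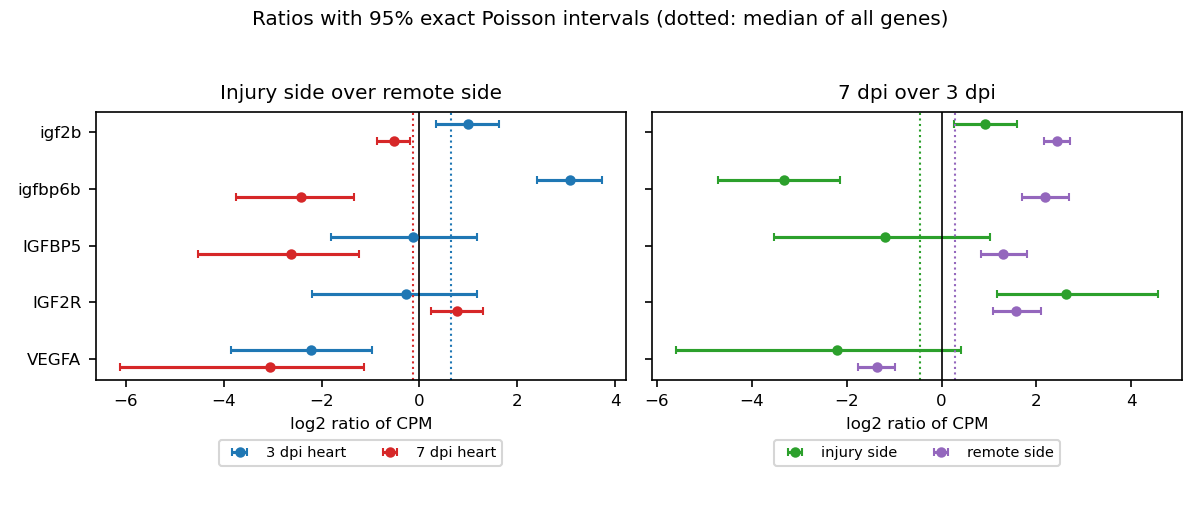
Log2 ratio of summed CPM (horizontal axis) for each gene, injury side over remote side in each heart (left; 3 dpi blue, 7 dpi red) and 7 dpi over 3 dpi on each side (right; injury side green, remote side purple), with 95% exact Poisson intervals as bars and dotted lines at the median of all genes. igfbp6b lies at 3.07 at 3 dpi and at -2.42 at 7 dpi in the left panel, and VEGFA is the only gene left of 0 on the remote side in the right panel.

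A ratio of 2 genes on the same sides does not depend on the library total. At 3 dpi the injury-to-remote fold of igfbp6b was 4.19 times that of igf2b (2.2 to 8.01) and 39.2 times that of VEGFA (14.1 to 132). The fold of igf2b was 9.34 times that of VEGFA (3.4 to 31.7). At 7 dpi the order of ligand and binding protein was turned, with the fold of igf2b at 3.72 times that of igfbp6b (1.68 to 9.70). The fold of IGF2R at 7 dpi was 2.46 times that of igf2b (1.58 to 3.78) and 9.15 times that of igfbp6b (3.88 to 24.8). So igf2b and igfbp6b were unequally placed in both hearts, beyond counting error.

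Section by section, igf2b and igfbp6b had a Pearson r of 0.65 and a Spearman rho of 0.66 over the 35 kept sections at 3 dpi, and of 0.36 and 0.28 over the 24 at 7 dpi. With the same measure, on log2(CPM + 10), 3 named genes of at least 200 counts were listed for each member with at least 100 counts in a heart; all share its sections and their depth. At 3 dpi the nearest to igf2b were cyb5r1 (r 0.76), septin7b (0.75) and nppb (0.69), the last a natriuretic peptide gene of stressed cardiomyocytes. Nearest to igfbp6b were crip1, krt18a.1 and si:ch211-222l21.1, each at r 0.79. Nearest to VEGFA were fhod3a (0.80), a formin of the sarcomere, PFKM (0.78), the muscle phosphofructokinase, and TMEM38A (0.76), an ion channel of the sarcoplasmic reticulum.

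For igf2b and igfbp6b, listed in both hearts, the 7 dpi genes were other ones than at 3 dpi. Each list held 3 of 1339 or 1340 candidates at 3 dpi and of 1320 at 7 dpi. The overlap to expect without a change was not computed, so no difference between the hearts is read from this. At 7 dpi the nearest to igf2b were tspo (r 0.77), nedd8 (0.73) and HSPB1 (0.70), and those to igfbp6b were BOK (0.82), NAA15 (0.79) and cox6b1 (0.77). IGF2R was nearest to cd68 (0.80), a lysosomal membrane protein gene of macrophages, followed by krt18b (0.71) and pdap1a (0.68). IGFBP5 was nearest to b2ml (0.72), WWTR1 (0.71) and zgc:103438 (0.70). Among the summed marker lists, IGF2R had its largest r with leukocytes at 7 dpi, 0.56 with a rho of 0.40.

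Of the other genes of the IGF axis, the remaining ligands were too scarce to describe: ins, igf1, igf2a and igf3 matched 4 IDs, and 0 of them reached 20 counts. Of 11 receptor and adaptor genes measured at 3 dpi, that is with at least 20 counts, 5 passed 2-fold toward the injury side and 1 toward the remote side. These shares are near the 37.1% and 12.0% of all genes. The median log2 difference was 0.75 over 10 of the 11 genes, against 0.65 over all genes. The 5 included the adaptors SHC1, at 83.1 against 25.3 CPM and 3.29-fold (1.94 to 5.39), and grb2b, at 185 against 66.8 CPM and 2.77-fold (1.98 to 3.82). An IGF1R gene (ENSDARG00000027423) stood at 5 against 25 counts and 2.03-fold, with an interval of 0.608 to 5.41. The other IGF1R gene (ENSDARG00000034434) stood at 0 against 18 counts. Its floor of 3 counts on the injury side lay above its remote level, so no direction is read and the median left it out. At 7 dpi 0 of 9 were higher and 3 lower, against 15.2% and 25.3% of all genes, with a median of 0.03 against -0.13. The largest difference was that of the adaptor gene GRB10 (ENSDARG00000002013), whose remote level was 18.6-fold the injury level (5.05 to 155; 76.7 against 4.13 CPM, from 157 and 2 counts).

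The other binding proteins and their regulators gave 2 measured genes per heart. HTRA1 (ENSDARG00000014907), a secreted protease that in mammals cleaves IGF binding proteins, was at 302 CPM on the 3 dpi injury side and 59.8 CPM on the remote side, 5.06-fold higher (3.82 to 6.65). At 7 dpi it stood at 16.5 against 91.4 CPM, with the remote level 5.53-fold higher (2.75 to 13). This is the same turn between the hearts as for igfbp6b. IGFBP2 at 3 dpi had 1 count against 34. STC2, a stanniocalcin gene, had 5 against 70 counts at 7 dpi, with a remote level 3.31-fold higher (1.35 to 10.5).

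The relay from the receptors through PI3K and Akt to mTOR had genes past 2-fold in both directions at 3 dpi. Of 25 measured genes 6 passed 2-fold toward the injury side and 5 toward the remote side, against 37.1% and 12.0% of all genes. Of the 5, the intervals of pik3r2 (1 against 49 counts), PIK3R3 (1 against 36), rheb (1 against 29) and foxo3a (3 against 75) included no difference. Of the 6, that of rps6kb1b (7 against 29 counts) did. The median log2 difference was 0.40 over 23 of the 25 genes, against 0.65 over all genes. PIK3CB, a PI3K catalytic subunit, was 4.17-fold higher (2.18 to 7.64), and eif4ebp1, an mTOR target that restrains translation, had a remote level 2.11-fold that near the injury (1.21 to 4.01). At 7 dpi 0 of 20 were higher and 4 lower, against 15.2% and 25.3% of all genes, with a median of -0.52 against -0.13. They were PIK3CA, PIK3R3, MTOR and foxo3b, for which the remote level was 2.54-fold to 7.8-fold that of the injury side; the interval of MTOR, 0.924 to 9.75, includes no difference.

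Because the IGF2 receptor also carries lysosomal enzymes, the genes of mannose 6-phosphate sorting were counted. At 3 dpi 4 of 11, M6PR, gnptg, NAGPA and VPS29, passed 2-fold toward the injury side and 0 toward the remote side, with a median of 0.96 against 0.65; a share of 4 of 11 is near the 37.1% of all genes. At 7 dpi 3 of 9 were higher and 1 lower, against 15.2% and 25.3% of all genes, with a median of 0.31 against -0.13. M6PR, the other mannose 6-phosphate receptor gene, was higher on the injury side in both hearts, 4.48-fold at 3 dpi (1.99 to 9.43; 41.6 against 9.28 CPM) and 2.52-fold at 7 dpi (1.52 to 4.11; 57.9 against 23 CPM). IGF2R itself held 4 injury-side counts at 3 dpi and was not among the higher genes there.

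Among other VEGF family ligands only VEGFC, known for lymphatic growth, was measured. It had 7 injury-side and 5 remote counts at 3 dpi, or 26.4 against 1.86 CPM, a 14.2-fold difference (3.89 to 56.9). At 7 dpi it had 3 against 86 counts, or 6.20 against 42.0 CPM, and the remote level was 6.78-fold higher (2.24 to 33.5). Thus VEGFC differed from VEGFA at 3 dpi, where its higher level lay toward the injury. At 7 dpi both were lower near the injury than remotely, but they were placed oppositely in the middle. VEGFC passed 2-fold above the remote level there, with a log2 difference of 1.03. VEGFA was below its remote level at -4.51, from 1 count. VEGFC was uneven in these middle sections, with a median of 0 and a highest level of 172 CPM. Of VEGF receptors and neuropilins 1 was measured at 3 dpi, flt1, and was not past 2-fold, and 3 at 7 dpi, of which nrp1b and the NRP2 gene ENSDARG00000038446 were lower on the injury side from 2 and 3 counts. Both intervals included no difference, and 25.3% of all genes were lower there. On the remote side flt1 was 5.39-fold higher at 3 than at 7 dpi (2.85 to 11.2; 29 against 5.38 CPM), while the other 3 measured IDs of this list were higher at 7 dpi, nrp1b 3.13-fold (1.31 to 8.25) and the NRP2 genes ENSDARG00000038446 and ENSDARG00000096546 3.47-fold (1.68 to 7.70) and 9.65-fold (2.90 to 50.4). Among all genes 32.4% were higher at 7 dpi on the remote side and 20.3% lower. VEGFC was also higher there at 7 dpi, 22.6-fold (9.33 to 71.5; 86 against 5 counts).

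The genes of the hypoxia list, a background for VEGFA, lay mostly on the remote side at 3 dpi. The list mixes hypoxia-inducible factor and oxygen-sensing genes with others such as glucose transporters, and hypoxia itself was not measured. Of 13 measured genes 8 passed 2-fold toward the remote side and 1 toward the injury, against 12.0% and 37.1% of all genes. The median log2 difference was -1.27 over 11 of the 13 genes, against 0.65 over all genes. Of the 8, the intervals of vhl (1 against 25 counts), SLC2A1 ENSDARG00000001437 (2 against 69) and BNIP3L ENSDARG00000025468 (6 against 130) included no difference. EPAS1 (ENSDARG00000057671), a hypoxia-inducible factor gene, had 1 count on the injury side and 235 on the remote side, a remote level 23.1-fold higher (4.11 to 916). The glucose transporter gene SLC2A1 (ENSDARG00000007412) was at 22.7 against 54.6 CPM. The exception was EGLN1, an oxygen-sensing prolyl hydroxylase gene, 2.88-fold higher on the injury side (1.43 to 5.41). At 7 dpi 4 of 11 measured genes were lower on the injury side and 1, EGLN1, was higher, against 25.3% and 15.2% of all genes. The median was -0.55 over 10 of the 11 genes, against -0.13 over all genes. EGLN1 was 3.64-fold higher (2.28 to 5.78). EPAS1 (ENSDARG00000057671) then had 0 injury-side and 84 remote counts, a remote level at least 6.62-fold higher with the injury side set to the floor of 3 counts. The cardiomyocyte markers lay in the same direction as these genes in both hearts, and their part was not tested.

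**Figure D4:**
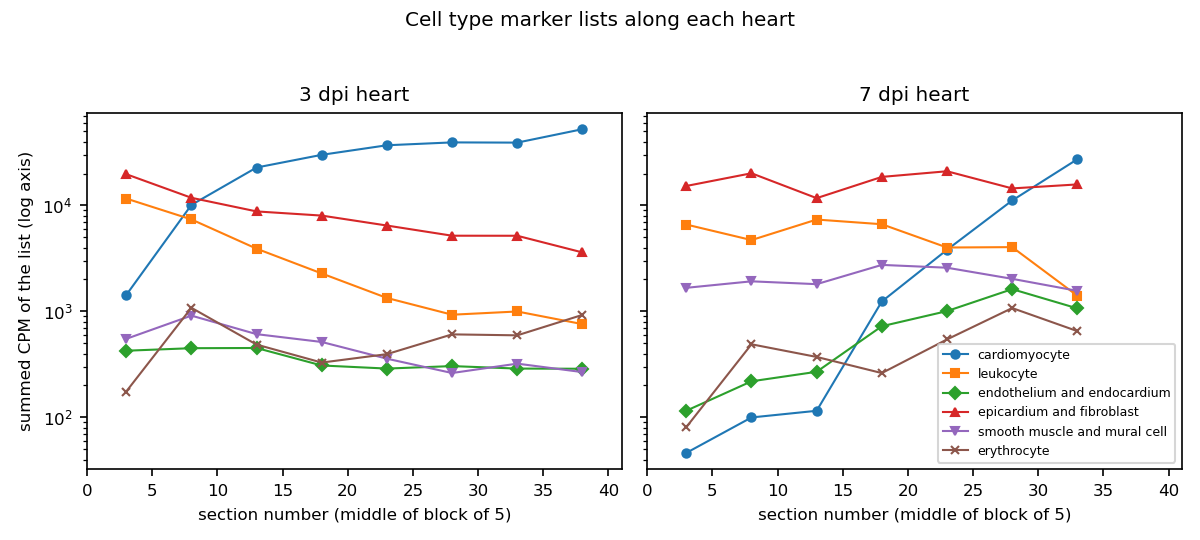
Summed CPM of 6 cell type marker lists (vertical axis, log scale) in blocks of 5 section numbers (horizontal axis, injury at left) for the 3 dpi heart (left) and the 7 dpi heart (right). Cardiomyocyte markers climb from 1426 to 52406 CPM at 3 dpi and from 46.2 to 27278 CPM at 7 dpi. Leukocyte markers go from 11609 to 758 CPM at 3 dpi. At 7 dpi they go from 6600 to 1406 CPM, with a peak of 7356 CPM in sections 11 to 15.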

How the data were processed

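The deposited files are 1 table per heart of whole-number counts per Ensembl gene ID and section, not normalized by the authors; the columns carry bare section numbers, so the automatic test of units did not examine them and the values were checked to be whole. The submitters' processing notes name BWA 0.6.2. Genome build, annotation and use of molecular identifiers are not given in the sources used here. Section numbers were read as the order from the injury outward. Spike-ins stayed out of all totals.

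The work used Python 3.11.15 with numpy 2.4.6, pandas 2.3.3, SciPy 1.17.1 and matplotlib 3.10.9. Sections under 20% of the heart's 75th percentile of section totals (24571 and 16192 counts) were left out. Counts were summed per block or side and divided by the summed gene counts. Folds are ratios of CPM with 95% exact conditional binomial (Poisson) intervals, and a side at 0 was set to a floor of 3 counts. Medians of log2 differences, of a list or of all genes, left out genes with at most 3 counts on each side. They also left out genes with a side at 0 whose floor was not below the other side. A gene needed 20 counts in a heart (either heart between days), and passed at 2-fold. The computation was tested on simulated data. No p-values were computed, since 1 heart per day gives no replicate.

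The members, lists and tests were chosen with earlier results of these data known. Named are all members, the 3 genes most like each by Pearson r, and examples of 8 pathway lists, these chosen after their values were seen. Capital symbols can bring paralogs under 1 name, and the authors' counting of reads shared by near-identical copies is unknown. Gene sequences were not used here. Alternatives covered section and gene minimum, scaling, totals, section means, a pseudocount, other sides and single sections left out.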

Additional observations from a re-analysis of the deposited data

Results flagged for a closer look

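For 3 of the 5 genes the log2 difference between the injury side and the remote side had opposite signs in the 2 hearts. With 1 heart per day the difference between the hearts was not tested. For igfbp6b the difference was 3.07 at 3 dpi and -2.42 at 7 dpi, and both intervals excluded 0. For igf2b it was 1.00 at 3 dpi and -0.52 at 7 dpi, and both intervals excluded 0, although the 3 dpi value was 0.33 after median-of-ratios scaling. For IGF2R it was -0.27 at 3 dpi, from 4 injury-side counts and with an interval that includes 0, and 0.78 at 7 dpi.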

How the results depend on the processing

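Of 345 log2 differences of a member under another setting, 323 lay inside the 95% interval of the reported one and 22 outside, 30 fell on the other side of the 2-fold line, and no called value changed sign. Over the settings the injury-to-remote value of igfbp6b was 2.40 to 3.46 at 3 dpi and -2.57 to -1.69 at 7 dpi, that of VEGFA -2.89 to -1.59 and -3.80 to -1.55, and that of IGFBP5 at 7 dpi -3.22 to -1.28. With the first and last 10 kept sections as sides, the middle became sections 16 to 30 at 3 dpi and sections 14 and 16 to 18 at 7 dpi. The middle-to-remote value was then 0.49 for igf2b and 1.71 for igfbp6b at 3 dpi, and 0.94 for IGF2R and -1.06 for IGFBP5 at 7 dpi. For VEGFA at 7 dpi these middle sections held 0 counts, and the value of -1.95 is a bound from the floor. With sides of 1 to 7 and 18 to 34 at 7 dpi the middle-to-remote value was -3.79 for igfbp6b. At 3 dpi igf2b lost its place on the injury side, leaving 1 member higher there, under a section minimum of 5%, median-of-ratios scaling, totals without the most abundant IDs, means of section CPM and a pseudocount of 1 CPM. At 7 dpi 1 member was higher on the injury side with no gene minimum (the second IGFBP5 ID), with the deepest-count section of a gene dropped, and with the first and last 10 kept sections as sides (IGF2R in both). On the injury side 2 members were higher at 7 than at 3 dpi with the 5% minimum, median-of-ratios scaling or section means, igf2b being added. On the remote side 2 remained higher at 7 dpi with the section of most counts left out. A gene minimum of 50 counts gave 2394 genes past 2-fold at 3 dpi in place of 4022, 1695 in place of 3162 at 7 dpi and 3191 in place of 4900 between the remote sides. IGF2R at 3 dpi had a log2 difference of 1.11 with the first and last 10 kept sections as sides. Comparisons with the middle, and leaving out each section in turn, were added after seeing the data. No paired analysis was possible because there was 1 heart per day. Depth limits the injury side most, where VEGFA rests on 5 and 2 counts.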
